A study of Mus musculus with 12 samples.

Results

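The genes described here are the Wnt ligands, the Frizzled receptors, the proteins that antagonise, transmit or process the Wnt signal, and a few of its direct targets. They were taken by symbol: every Wnt, Fzd, Sfrp1 to Sfrp5 and Dkk1 to Dkk4 entry of the count table, plus 17 genes named one by one. This gave 54 of the 23284 genes in the table, of which 19 are ligands, 10 Frizzled receptors, 4 secreted Frizzled-related proteins and 4 Dickkopf proteins. RNA-seq had been done on 12 single whole mouse embryos of mixed C57BL/6 x 129Sv background at 9.0 dpc, with about 9 to 10 somites. The 8 CDKO embryos are conditional double mutants, described as null for Tgif1 and Tgif2, a pair of related homeodomain repressors. The 4 WT embryos are wild type of the same background and stage. The sources used here do not give the Cre driver of the conditional alleles or the litters.

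Wnt proteins are secreted, lipid-modified ligands that bind a Frizzled receptor together with Lrp5 or Lrp6. Binding stalls the complex of Axin and Apc that destroys beta-catenin, and beta-catenin then acts with the TCF/LEF factors at target genes, Axin2 and Sp5 among them. In the embryo of this age Wnt3a and Wnt8a are known from the tailbud, Wnt1 and Wnt3a from the dorsal neural tube, Wnt2 and Wnt11 from the heart region, and Wnt5a and Wnt11 from signalling that does not pass through beta-catenin.

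Total counts were 16802367 to 21346245 in CDKO embryos and 17296017 to 20080786 in WT embryos. Tgif1 stood at 6.20 ± 0.528 CPM (the usual scaling of counts to library size, here after TMM) in CDKO embryos and 60.9 ± 2.52 CPM in WT embryos (SD, n = 8 and 4), and all 8 CDKO embryos lay below all 4 WT embryos. Tgif2 stood at 97.9 ± 11.8 CPM in CDKO embryos and 87.3 ± 1.17 CPM in WT embryos, with an adjusted p of 0.0958. The sources used here do not say which part of Tgif2 is deleted, and near-identical Tgif2 pseudogenes exist, so this count does not check the label. A pair of embryos stood apart. CDKO embryo 2 had a summed level of 71.8 CPM over 12 tailbud and presomitic markers, the lowest of the 8 CDKO embryos, whose median was 233.9 CPM, against 353.9 to 479.1 CPM in WT embryos. WT embryo 1 was the highest or lowest of its group in 35 of the 51 Wnt pathway genes tested, against 18 to 25 for the other WT embryos. Without CDKO embryo 2 the calls of Wnt1, Wnt10a, Wnt16, Fzd8 and Sfrp2 given below were lost, and without WT embryo 1 those of Wnt1, Wnt5b, Wnt16, Fzd8 and Sfrp2. These losses were not particular to the pair. Leaving out CDKO embryo 3 or CDKO embryo 5 lost the same calls as leaving out CDKO embryo 2. Leaving out WT embryo 2 lost the same calls as leaving out WT embryo 1, and that of Sfrp1.

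Of the 54 genes, 51 passed the count filter and entered edgeR's quasi-likelihood test. At an adjusted p under 0.05, 12 were higher in CDKO embryos (23.5%) and 17 were lower (33.3%), while 22 did not pass. The same test called 51.5% of all 14412 genes tested, 26.6% higher and 24.9% lower. The median log2 fold change, CDKO over WT, was 0.03 over the 51 genes and 0.0066 over all genes tested. In 18 of the 51 genes the CDKO and WT embryos did not overlap, against 34.7% of all genes tested. Of the 51 genes, 12 (23.5%) passed with a change of at least 1.5-fold, against 16.5% of all genes. The pathway's shares of genes higher and of genes without overlap are close to those of the whole table. Its shares of genes lower and of genes changed at least 1.5-fold are larger, and these differences were not tested.

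**Figure D1:**
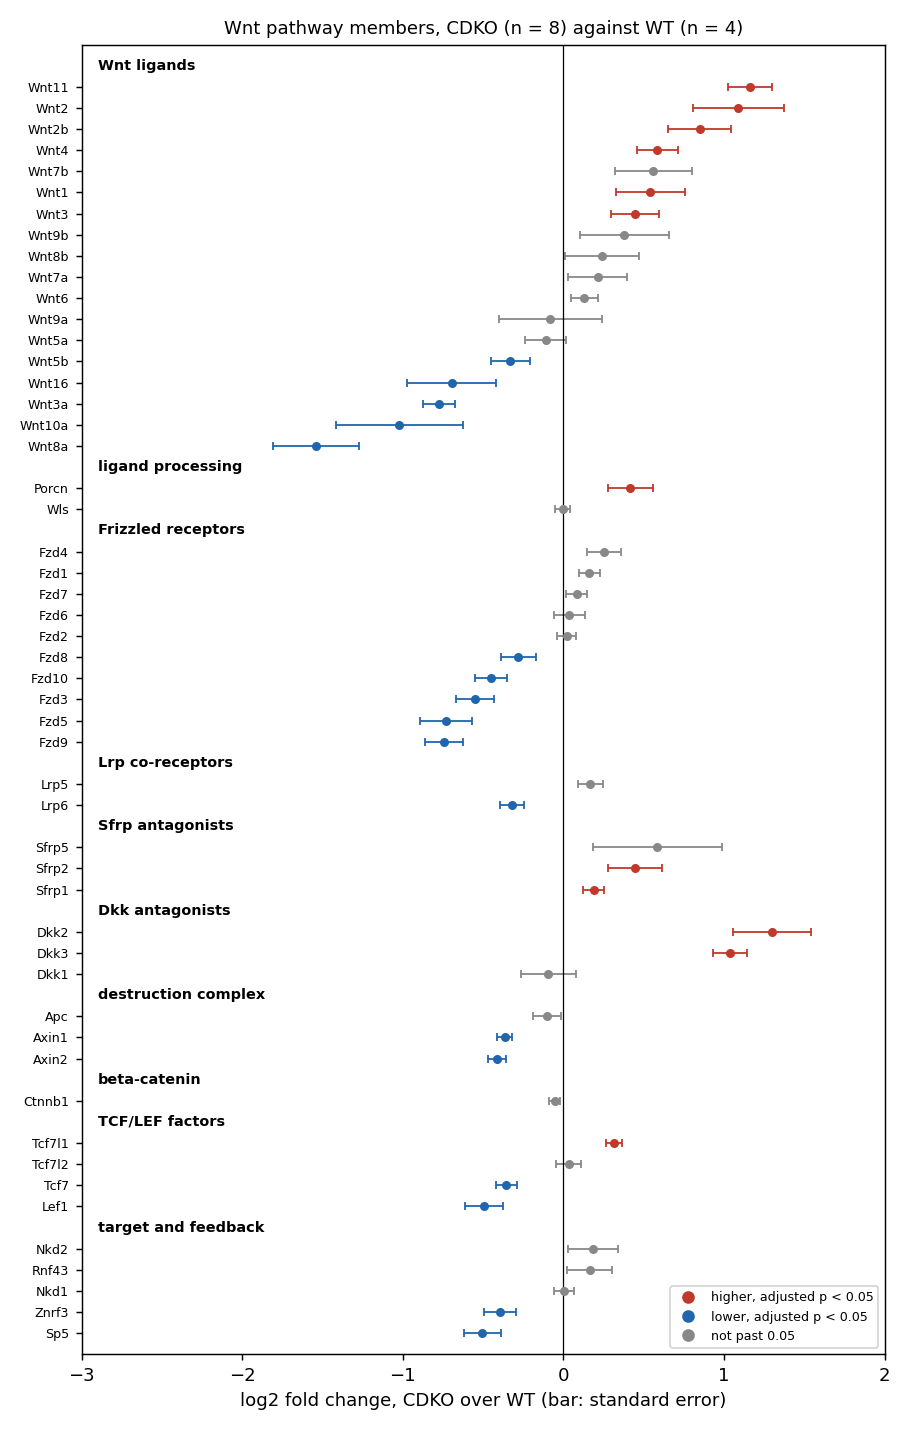
Log2 fold change, CDKO over WT, of the 51 Wnt pathway genes tested, grouped by role. Points are estimates and bars are standard errors. Red marks genes higher and blue genes lower in CDKO embryos at an adjusted p under 0.05, and grey marks the 22 genes that did not pass. All 5 called Frizzled genes lie to the left of 0 and all 4 called Sfrp and Dkk genes to the right. Over all genes tested, 26.6% were higher and 24.9% lower.

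By role, 6 of 18 tested ligands were higher and 5 lower. None of the 10 Frizzled receptors was higher and 5 were lower. Of the 6 tested secreted antagonists of the Sfrp and Dkk families, 4 were higher and none was lower. Both Axin genes, 2 of 5 target and feedback genes and 2 of 4 TCF/LEF factors were lower, and 1 TCF/LEF factor was higher. Over all genes tested, 26.6% were higher and 24.9% lower. These shares stand beside the counts by role and those of the other gene lists below. No role or list was tested against them. Dkk4, Sfrp4 and Wnt10b had too few counts to be tested: Dkk4 had 5 counts over the CDKO embryos and 3 over the WT embryos, Sfrp4 69 and 19, and Wnt10b 32 and 44.

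Upstream sequences are printed for 6 genes that the results turn on: the targets Sp5 and Axin2, the ligands Wnt3a, Wnt3 and Wnt11, and the TCF factor Tcf7l1. They were chosen after their values were seen. Each is the 250 bases before an annotated transcript start, from RefSeq on GRCm38.p6, a later build than the mm9 named for the counts. That start need not be the start of the gene's whole annotated span. The span of Axin2 begins at 108917828, upstream of the printed window, and that of Wnt11 at 98835084, within it. The printed window of Wnt3 lies inside the annotated span of its neighbour Wnt9b. Capitals mark the core letters of the TCF/LEF site, CTTTGA in one form and in the other form CTTTGT. They also mark the core letters of the Tgif site, which are CTGTCA. Both strands were searched, so some capitals read as the reverse complement. The TCF/LEF and Tgif letters do not overlap each other.
Sp5, lower in CDKO embryos, chr2:70474673-70474922, plus strand: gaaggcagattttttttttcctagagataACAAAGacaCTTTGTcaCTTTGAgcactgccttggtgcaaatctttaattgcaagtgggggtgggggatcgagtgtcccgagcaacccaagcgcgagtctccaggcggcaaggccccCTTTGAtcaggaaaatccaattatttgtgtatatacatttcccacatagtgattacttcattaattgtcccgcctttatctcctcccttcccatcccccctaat
Axin2, lower in CDKO embryos, chr11:108920099-108920348, plus strand: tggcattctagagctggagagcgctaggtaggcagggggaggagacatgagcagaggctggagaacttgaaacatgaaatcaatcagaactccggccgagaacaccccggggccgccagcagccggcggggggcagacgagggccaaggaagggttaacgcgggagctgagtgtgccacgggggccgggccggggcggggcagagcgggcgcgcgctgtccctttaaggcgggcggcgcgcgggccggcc
Wnt3a, lower in CDKO embryos, chr11:59290752-59291001, minus strand: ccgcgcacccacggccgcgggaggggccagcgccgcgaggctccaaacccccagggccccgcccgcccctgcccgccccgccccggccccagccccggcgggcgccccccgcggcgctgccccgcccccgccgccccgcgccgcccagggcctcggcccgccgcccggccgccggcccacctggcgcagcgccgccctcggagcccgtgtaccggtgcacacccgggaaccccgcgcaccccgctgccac
Wnt3, higher in CDKO embryos, chr11:103773925-103774174, plus strand: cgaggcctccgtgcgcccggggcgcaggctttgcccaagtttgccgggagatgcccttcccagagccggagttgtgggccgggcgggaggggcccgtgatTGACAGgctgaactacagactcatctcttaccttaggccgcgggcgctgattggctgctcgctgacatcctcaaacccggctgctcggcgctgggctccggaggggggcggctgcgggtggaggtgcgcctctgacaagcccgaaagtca
Wnt11, higher in CDKO embryos, chr7:98834862-98835111, plus strand: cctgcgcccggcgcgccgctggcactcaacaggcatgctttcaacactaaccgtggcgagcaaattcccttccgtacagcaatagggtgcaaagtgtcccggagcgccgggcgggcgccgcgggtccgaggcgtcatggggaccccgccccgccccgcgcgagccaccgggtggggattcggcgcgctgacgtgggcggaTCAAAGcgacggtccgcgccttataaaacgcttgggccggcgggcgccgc
Tcf7l1, higher in CDKO embryos, chr6:72789046-72789295, minus strand: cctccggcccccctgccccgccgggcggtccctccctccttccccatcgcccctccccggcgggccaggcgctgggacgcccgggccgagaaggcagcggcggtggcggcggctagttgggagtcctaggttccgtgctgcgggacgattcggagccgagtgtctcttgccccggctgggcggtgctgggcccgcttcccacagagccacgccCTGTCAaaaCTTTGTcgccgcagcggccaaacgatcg

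The Sp5 window held 4 TCF/LEF matches, while the windows of Axin2 and Wnt3a held none. The Axin2 window lies inside the annotated span of the gene, so the sequence before that span was not searched. The Wnt11 window held 1 TCF/LEF match, the Wnt3 window 1 Tgif match, and the Tcf7l1 window 1 of each, set 3 bases apart. Windows on chromosome 18 were left out for the pathway genes, so none was read for Wnt8a, Fzd8 and Apc. Windows were found for 36 of the 54 genes. RefSeq gives 7 of them several windows, and the ones printed are the farthest upstream. Counting every window of a gene, 3 of the 9 higher genes held a TCF/LEF match and 4 a Tgif match (Tcf7l1, Wnt1, Wnt3 and Wnt4). Of the 10 lower genes, 3 held a TCF/LEF match (Sp5, Lef1 and Wnt5b) and 1 a Tgif match (Lef1). Of the 16 genes that were tested and not called, 5 held a TCF/LEF match and 1 a Tgif match. With the farthest upstream window alone, the lower genes with a match were 1 for TCF/LEF (Sp5) and 0 for Tgif, and those not called were 4 and 1. Over all 32851 windows of the same length, chromosome 18 included, 27.6% held a TCF/LEF match and 15.9% a Tgif match. These are shares of windows and not of genes. A match is a description of these letters and not a binding site.

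Among the ligands that fell, Wnt8a and Wnt3a were lower in every CDKO embryo than in any WT embryo. Wnt8a, a ligand of the posterior embryo, ranged from 0.175 to 0.882 CPM in CDKO embryos with a median of 0.532, and stood at 1.62, 1.57, 1.73 and 1.595 CPM in WT embryos. Its log2 fold change was −1.54 (SE 0.27, adjusted p = 0.000209), from 84 counts in all over CDKO embryos and 121 over WT embryos. Wnt3a, which maintains paraxial mesoderm and the tailbud, ranged from 8.67 to 12.8 CPM in CDKO embryos with a median of 11.6, against 19.7, 18.4, 18.7 and 21.2 CPM in WT embryos. The Wnt3a log2 fold change was −0.78 (SE 0.10, adjusted p = 1.15e-05). CDKO embryo 2, which had the lowest tailbud marker sum, had the highest Wnt3a level of the CDKO embryos. That level was 12.8 CPM, close to the 12.6 CPM of CDKO embryos 3 and 5. For Wnt8a, CDKO embryo 6 had the highest level of the CDKO embryos, 0.882 CPM, and their highest tailbud sum, 300.6 CPM. CDKO embryo 7 had the lowest Wnt8a level, 0.175 CPM, and the lowest tailbud sum after CDKO embryo 2, 130.7 CPM. Tailbud and presomitic markers also fell: 6 of 12 were lower and none higher, with summed levels of 71.8 to 300.6 CPM in CDKO embryos and 353.9 to 479.1 CPM in WT embryos. In whole embryos, fewer cells of a type and less RNA per cell cannot be told apart, and the part of these markers in the Wnt3a and Wnt8a results was not tested.

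The calls of the other 3 ligands that fell were each lost in several of the fits that left out 1 embryo. In those fits the log2 fold change stayed within −0.39 to −0.28 for Wnt5b and −0.86 to −0.61 for Wnt16. Wnt5b, which signals largely without beta-catenin, averaged 28.8 ± 5.33 CPM in CDKO embryos and 36.2 ± 2.10 CPM in WT embryos, with −0.33 on the log2 scale (SE 0.12, adjusted p = 0.0334). The call was lost without CDKO embryo 1 or 8, and without WT embryo 1, 2 or 4. Wnt10a, a ligand of ectoderm, ranged from 0.147 to 0.706 CPM in CDKO embryos with a median of 0.301, against 0.521, 0.456, 0.518 and 1.196 CPM in WT embryos. Its log2 fold change of −1.02 (SE 0.40, adjusted p = 0.0416) became −0.58 without WT embryo 4, and the call was also lost without CDKO embryo 1, 2, 3, 5 or 8. Wnt16 ranged from 0.471 to 1.42 CPM in CDKO embryos with a median of 0.723, against 1.22, 1.57, 1.04 and 1.55 CPM in WT embryos. CDKO embryos 7 and 8 overlapped the WT embryos, and the Wnt16 log2 fold change of −0.70 (SE 0.28, adjusted p = 0.0456) was lost in 9 of the 12 fits that left out 1 embryo.

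Of the ligands that were higher, Wnt11 and Wnt2 had the largest changes. Wnt11, which acts in heart formation and in cell movements without beta-catenin, ranged from 11.2 to 18.9 CPM in CDKO embryos with a median of 16.1, against 6.72, 6.84, 6.45 and 7.93 CPM in WT embryos. The groups did not overlap, and the log2 fold change was 1.16 (SE 0.14, adjusted p = 7.05e-06). Wnt2, made in the mesoderm at the venous pole of the heart and in the allantois, ranged from 32.3 to 62.7 CPM in CDKO embryos with a median of 42.0, against 9.96, 18.6, 28.7 and 27.4 CPM in WT embryos. WT embryo 1 was the lowest of all 12 embryos. The Wnt2 log2 fold change was 1.09 (SE 0.28, adjusted p = 0.00712), and 0.86 without WT embryo 1. Heart markers moved in the same direction: 9 of 10 were higher, with a median log2 fold change of 0.73 and summed levels of 1284 to 2172 CPM in CDKO embryos and 858.1 to 961.6 CPM in WT embryos. Endothelial markers were higher in 6 of 8. The part of these markers in the Wnt2 and Wnt11 results was not tested.

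Wnt2b, the close relative of Wnt2, and Wnt4, a ligand best known from kidney and gonad, were also higher with no overlap between groups. Wnt2b ranged from 6.07 to 12.4 CPM in CDKO embryos with a median of 7.72, against 3.42, 4.61, 4.72 and 5.13 CPM in WT embryos. On the log2 scale CDKO over WT was 0.85 (SE 0.20), with adjusted p = 0.00214. Wnt4 ranged from 13.5 to 21.4 CPM in CDKO embryos with a median of 15.9, against 9.50, 11.4, 12.8 and 12.2 CPM in WT embryos. This gave 0.59 on the log2 scale (SE 0.13, adjusted p = 0.00159). Both calls held whichever single embryo was left out. Wnt3, the ligand that starts gastrulation, averaged 5.19 ± 0.926 CPM in CDKO embryos and 3.80 ± 0.299 CPM in WT embryos (log2 fold change 0.45, SE 0.15, adjusted p = 0.0201), and 7 of 8 CDKO embryos were above all WT embryos. Its call was lost without WT embryo 3.

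Wnt1, the ligand of the midbrain and the dorsal neural tube, lay at the edge of the threshold. It ranged from 14.0 to 33.4 CPM in CDKO embryos with a median of 22.8, against 18.5, 15.1, 12.4 and 16.4 CPM in WT embryos, with 0.54 on the log2 scale (SE 0.21, adjusted p = 0.0499). CDKO embryos 1, 7 and 8, at 17.6, 14.0 and 16.4 CPM, overlapped the WT embryos, and 9 of the 12 fits that left out 1 embryo lost the call. Of 9 dorsal neural tube markers, 1 was higher and 3 were lower. Their sums ran from 151.2 to 194.1 CPM in CDKO embryos and from 168.1 to 189.3 CPM in WT embryos. CDKO embryo 1 had the lowest of these sums in its group, and CDKO embryos 7 and 8 had the highest. Of 7 midbrain-hindbrain boundary markers none was higher and 1 was lower, Fgf17. Fgf17 stood at 8.88 ± 2.02 CPM in CDKO embryos and 19.4 ± 0.464 CPM in WT embryos. The boundary marker sums ran from 82.5 to 123.6 CPM in CDKO embryos and from 108.4 to 141.0 CPM in WT embryos. CDKO embryos 1, 7 and 8 had the lowest boundary sums, at 91.4, 88.0 and 82.5 CPM. The part of these markers in the Wnt1 result was not tested.

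The remaining 7 tested ligands did not pass. Wnt5a, the main ligand of planar polarity and axis elongation, ranged from 46.8 to 88.0 CPM in CDKO embryos with a median of 77.8, against 71.0, 81.8, 84.8 and 86.9 CPM in WT embryos. The lowest value was that of CDKO embryo 2, and the other CDKO embryos lay within 70.9 to 88.0 CPM, close to the WT range. The Wnt5a log2 fold change was −0.11 (SE 0.13, adjusted p = 0.493) with CDKO embryo 2 and −0.03 without it. Wnt7b, with 0.56 on the log2 scale (SE 0.24, adjusted p = 0.0666), passed when CDKO embryo 1 or 6 was left out. Log2 fold changes of Wnt6, Wnt7a, Wnt8b, Wnt9a and Wnt9b ran from −0.08 to 0.38, with adjusted p of 0.213 or more. Without WT embryo 1, Wnt8b moved to 0.48 on the log2 scale, against 0.24 with it, and did not pass either way. CDKO embryos 7 and 8 held the lowest Wnt9b levels of their group, 3.32 and 3.19 CPM, and the highest Wnt9a levels, 3.96 and 4.17 CPM.

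Levels of different ligands were compared per kilobase of the longest annotated transcript. On this scale Wnt6, an ectodermal ligand, was highest in both groups, at 21.04 CPM per kb in CDKO embryos and 19.3 CPM per kb in WT embryos. Wnt2 came next in CDKO embryos, at 19.99 ± 5.28 CPM per kb against 9.38 ± 3.85 CPM per kb in WT embryos. In the CDKO embryos Wnt6 and Wnt2 differed by less than the spread of Wnt2. Wnt5b stood at 12.2 CPM per kb in CDKO embryos and 15.3 CPM per kb in WT embryos, and Wnt5a at 10.7 CPM per kb in CDKO embryos and 11.6 CPM per kb in WT embryos, so that in WT embryos Wnt2 came after Wnt6, Wnt5b and Wnt5a. Wnt3a and Wnt11 were close in level in CDKO embryos, at 4.12 and 4.54 CPM per kb, and apart in WT embryos, at 7.06 and 2.02 CPM per kb. Some Wnt genes are neighbours. Wnt9b and Wnt3 lie next to each other on chromosome 11, with annotated spans that overlap at the start of Wnt3. Wnt3a and Wnt9a are also neighbours there. Of these genes Wnt3 was higher, Wnt3a was lower and Wnt9a and Wnt9b did not pass. Wnt6 and Wnt10a are neighbours on chromosome 1, and of this pair Wnt10a was lower and Wnt6 did not pass. Wnt10b, which was not tested, and Wnt1, which was higher, are neighbours on chromosome 15.

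**Figure D2:**
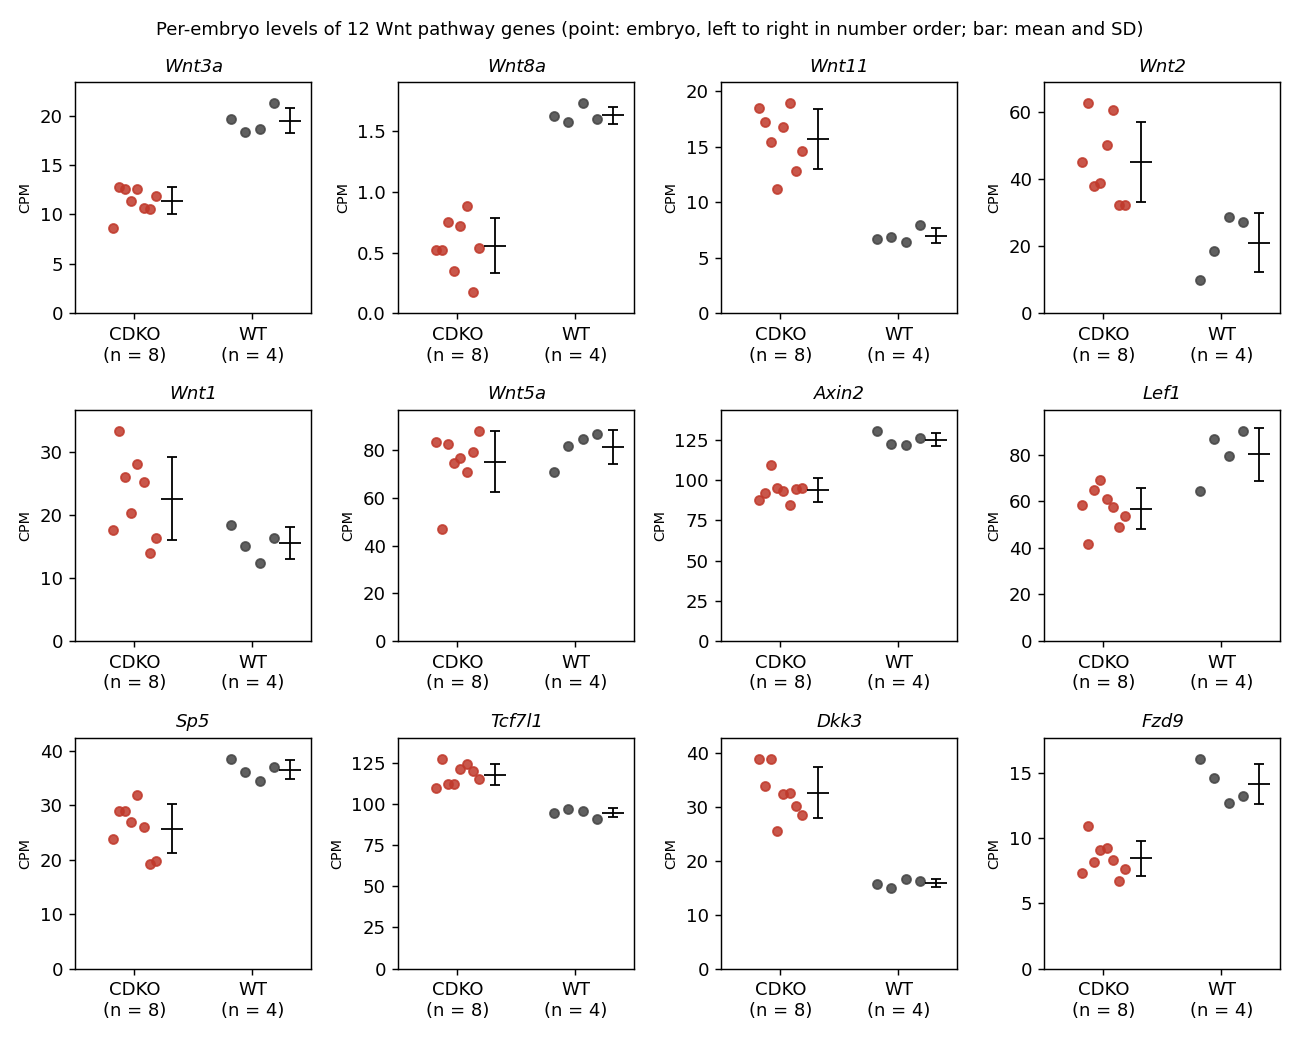
Level in CPM of 12 Wnt pathway genes in each embryo, with CDKO embryos on the left and WT embryos on the right of each panel. Points are single embryos and lines are the mean and SD (n = 8 and 4). Wnt3a, Wnt8a, Axin2, Sp5 and Fzd9 are lower in all 8 CDKO embryos than in any WT embryo, Wnt11, Wnt2, Dkk3 and Tcf7l1 are higher, and Wnt1, Wnt5a and Lef1 overlap.

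Of the genes that ready the ligands for release, Porcn, which adds their lipid, averaged 16.8 ± 3.17 CPM in CDKO embryos and 12.6 ± 1.199 CPM in WT embryos (log2 fold change 0.42, SE 0.14, adjusted p = 0.0221). Its call was lost without WT embryo 3 or 4. Wls, which carries the ligands to the cell surface, stood at 212 ± 8.24 CPM in CDKO embryos and 213 ± 13.0 CPM in WT embryos, with an adjusted p of 0.933.

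Among the receptors, the 5 Frizzled genes that fell were Fzd9, Fzd5, Fzd3, Fzd10 and Fzd8. Fzd9 ranged from 6.75 to 10.9 CPM in CDKO embryos with a median of 8.25, against 16.1, 14.6, 12.7 and 13.3 CPM in WT embryos. The fitted log2 difference was −0.74 ± 0.12 (SE), at an adjusted p of 9.71e-05. Fzd5, a receptor of the anterior neural plate and eye, ranged from 10.1 to 21.6 CPM in CDKO embryos with a median of 15.7, against 34.5, 20.5, 25.5 and 25.0 CPM in WT embryos. On the log2 scale CDKO over WT was −0.73 (SE 0.16), with adjusted p = 0.00164. WT embryo 1 was the highest for Fzd5 and CDKO embryo 2 the lowest, and without both the log2 fold change was −0.50. Fzd3, a receptor for axon guidance and planar polarity, ranged from 82.5 to 152 CPM in CDKO embryos with a median of 115, against 194, 161, 175 and 161 CPM in WT embryos. This gave −0.55 on the log2 scale (SE 0.12, adjusted p = 0.00196). Fzd9 and Fzd3 did not overlap between groups, whereas 1 CDKO embryo reached the WT range for Fzd5.

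Fzd10, made in the dorsal neural tube, averaged 72.5 ± 10.4 CPM in CDKO embryos and 99.0 ± 6.13 CPM in WT embryos (log2 fold change −0.45, SE 0.10, adjusted p = 0.0017), with no overlap. Fzd8 averaged 19.9 ± 3.18 CPM in CDKO embryos and 24.2 ± 2.23 CPM in WT embryos (log2 fold change −0.28, SE 0.11, adjusted p = 0.0427), and 9 of the 12 fits that left out 1 embryo lost this call. The receptors with the highest levels per length, Fzd2 and Fzd7, did not pass. Per kilobase, Fzd2 stood at 64.7 CPM in CDKO embryos and 63.8 CPM in WT embryos, and Fzd7 at 55.7 CPM in CDKO embryos and 52.6 CPM in WT embryos. Fzd1, Fzd4 and Fzd6 had log2 fold changes of 0.16, 0.25 and 0.04, and Fzd1 and Fzd4, at adjusted p of 0.0506 and 0.0578, did not pass. Fzd1 passed without CDKO embryo 1 or 6, and Fzd4 without CDKO embryo 8 or WT embryo 3. Without WT embryo 1 the Fzd4 value became 0.145 (adjusted p = 0.238).

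Lrp6, the co-receptor most needed for beta-catenin signalling in the embryo, ranged from 112 to 164 CPM in CDKO embryos with a median of 146, against 175, 179, 186 and 177 CPM in WT embryos. The groups did not overlap, and the log2 fold change was −0.32 (SE 0.08, adjusted p = 0.00248). Lrp5, the related co-receptor, averaged 175 ± 17.4 CPM in CDKO embryos and 156 ± 13.5 CPM in WT embryos, with 0.17 on the log2 scale (SE 0.08, adjusted p = 0.0857), and passed without CDKO embryo 7 or 8. Without WT embryo 1 it was 0.105 (adjusted p = 0.307).

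The secreted antagonists of the Sfrp and Dkk families moved upward where they passed, while antagonists outside these families, given below, went both ways. Dkk2 and Dkk3 had the largest changes. Dkk2, which binds Lrp5 and Lrp6, ranged from 4.89 to 11.6 CPM in CDKO embryos with a median of 7.96, against 1.97, 3.19, 3.63 and 4.24 CPM in WT embryos. The fitted log2 difference was 1.30 ± 0.24 (SE), at an adjusted p of 0.000457. Dkk3, the divergent member of the family with no settled part in Wnt inhibition, ranged from 25.5 to 38.9 CPM in CDKO embryos with a median of 32.5, against 15.7, 14.99, 16.6 and 16.2 CPM in WT embryos. On the log2 scale CDKO over WT was 1.04 (SE 0.11), with adjusted p = 1.57e-06. For both genes all CDKO embryos were above all WT embryos. Dkk1, the head-forming Wnt antagonist and itself a Wnt target, averaged 16.3 ± 4.24 CPM in CDKO embryos and 17.4 ± 1.42 CPM in WT embryos, with an adjusted p of 0.671.

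The Sfrp proteins bind Wnt ligands outside the cell. Sfrp1 averaged 269.6 ± 21.5 CPM in CDKO embryos and 236 ± 19.2 CPM in WT embryos (log2 fold change 0.19, SE 0.07, adjusted p = 0.0236). Sfrp2 averaged 145 ± 33.3 CPM in CDKO embryos and 107 ± 7.75 CPM in WT embryos (log2 fold change 0.44, SE 0.17, adjusted p = 0.0446). Neither was stable: the Sfrp1 call was lost without WT embryo 2, 3 or 4, and the Sfrp2 call in 9 of 12 fits that left out 1 embryo. Sfrp5 spread widely, from 16.7 to 72.6 CPM in CDKO embryos and from 14.3 to 39.5 CPM in WT embryos, and did not pass (log2 fold change 0.58, SE 0.40, adjusted p = 0.249). CDKO embryos 7 and 8 were the lowest of their group for Sfrp5, at 16.7 and 21.7 CPM, and CDKO embryo 2 the highest. WT embryo 1 was the lowest of all 12, and without it the Sfrp5 log2 fold change was 0.345.

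Both Axin genes, which encode the scaffolds of the complex that destroys beta-catenin, fell by similar amounts. Axin2, the most widely used readout of Wnt signalling through beta-catenin, ranged from 84.3 to 109.7 CPM in CDKO embryos with a median of 94.1, against 131, 123, 122 and 126 CPM in WT embryos. This gave −0.41 on the log2 scale (SE 0.06, adjusted p = 2.68e-05). Axin1, which is not known as a Wnt target, ranged from 91.9 to 109 CPM in CDKO embryos with a median of 102, against 135, 128, 133 and 132 CPM in WT embryos. The fitted log2 difference was −0.37 ± 0.04 (SE), at an adjusted p of 8.03e-06. Neither gene overlapped between groups. Apc averaged 165 ± 20.9 CPM in CDKO embryos and 177 ± 7.87 CPM in WT embryos, with an adjusted p of 0.354. Ctnnb1, which encodes beta-catenin and had the highest level per length of the 54 genes, ranged from 1473 to 1578 CPM in CDKO embryos with a median of 1551, against 1642, 1609, 1572 and 1564 CPM in WT embryos. The groups overlapped for Ctnnb1, and its log2 fold change was −0.05 (SE 0.03, adjusted p = 0.169).

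The 4 TCF/LEF factors, the DNA-binding partners of beta-catenin, divided. Lef1, mainly an activator and itself a Wnt target, ranged from 41.5 to 69.0 CPM in CDKO embryos with a median of 58.1, against 64.5, 86.6, 79.5 and 90.3 CPM in WT embryos. On the log2 scale CDKO over WT was −0.50 (SE 0.12), with adjusted p = 0.0031. For Lef1, 6 CDKO embryos lay below all WT embryos. Tcf7 averaged 69.3 ± 6.60 CPM in CDKO embryos and 88.6 ± 2.86 CPM in WT embryos (log2 fold change −0.35, SE 0.07, adjusted p = 0.000452). Tcf7l1, mainly a repressor of Wnt targets, went the other way, at 118 ± 6.46 CPM in CDKO embryos and 94.6 ± 2.68 CPM in WT embryos (log2 fold change 0.31, SE 0.05, adjusted p = 6.78e-05). Neither Tcf7 nor Tcf7l1 overlapped between groups. Tcf7l2 stood at 26.2 ± 1.89 CPM in CDKO embryos and 25.7 ± 2.92 CPM in WT embryos, with an adjusted p of 0.738. The upstream sequence of Tcf7l1 printed above holds both kinds of letters searched for.

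Of the 5 target and feedback genes, Sp5 and Znrf3 fell. Sp5, a transcription factor gene directly switched on by Wnt signalling, ranged from 19.2 to 31.9 CPM in CDKO embryos with a median of 26.5, against 38.5, 36.1, 34.4 and 36.9 CPM in WT embryos. This gave −0.51 on the log2 scale (SE 0.12, adjusted p = 0.00211). The window before Sp5 was the one with 4 TCF/LEF matches. A window of Lef1, also lower, held 3, though not the one farthest upstream. The windows of Dkk1 and Fzd1, which were not called, held 3 and 2. Znrf3, a ubiquitin ligase that removes Frizzled from the cell surface, averaged 19.3 ± 2.61 CPM in CDKO embryos and 25.4 ± 1.44 CPM in WT embryos (log2 fold change −0.39, SE 0.10, adjusted p = 0.0036). Neither gene overlapped between groups. Rnf43, the partner of Znrf3 in that role, averaged 7.56 ± 1.29 CPM in CDKO embryos and 6.74 ± 0.937 CPM in WT embryos, and Nkd1, an intracellular feedback inhibitor, 91.9 ± 6.45 CPM in CDKO embryos and 91.7 ± 6.54 CPM in WT embryos. With Nkd2, their log2 fold changes were 0.0035 to 0.18 and their adjusted p 0.343 or more. Without WT embryo 1, Nkd2 stood at 0.07 on the log2 scale, against 0.18 with it.

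**Figure D3:**
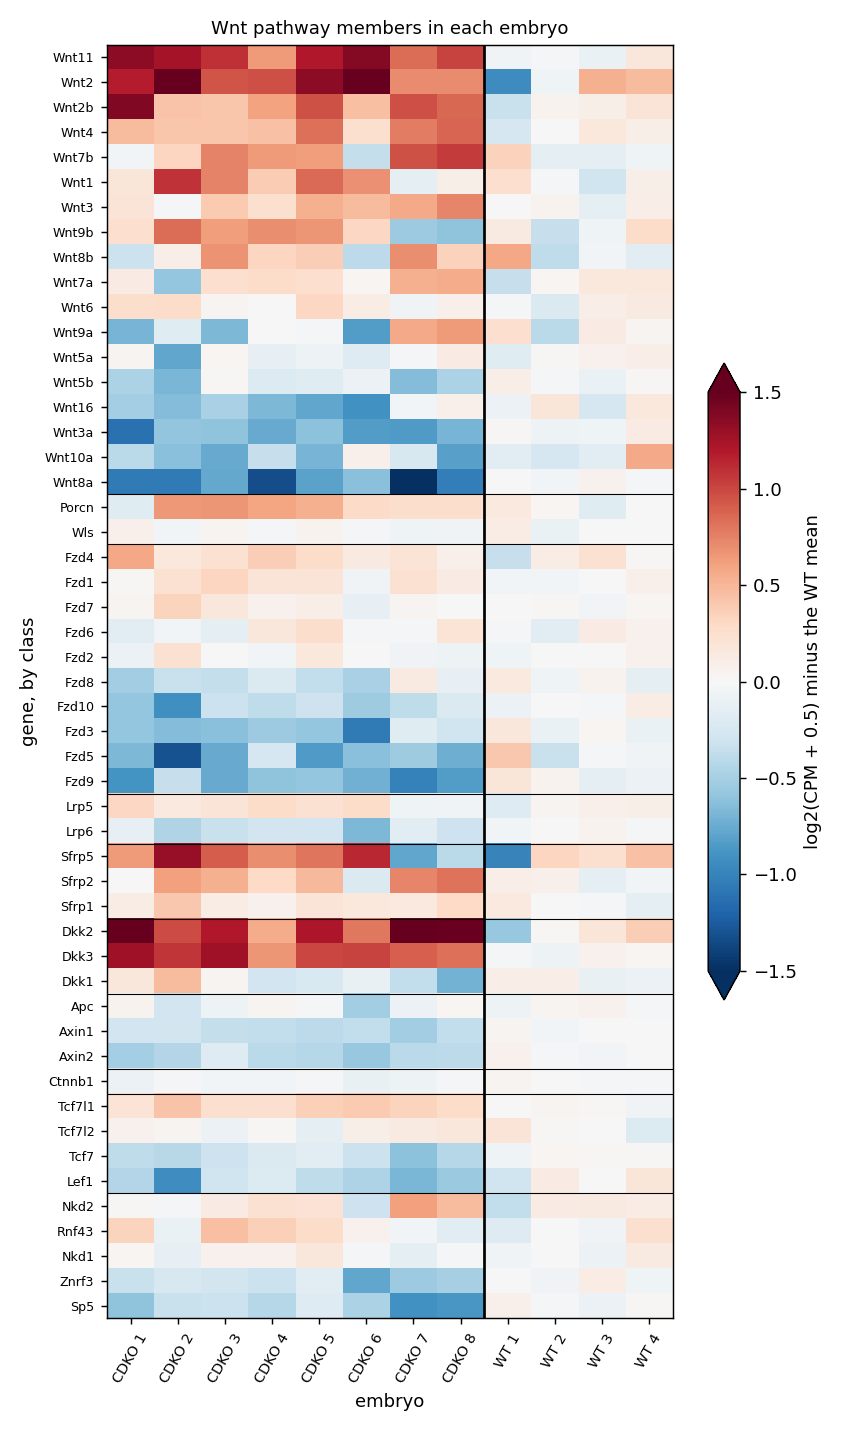
Level of the 51 tested Wnt pathway genes in each embryo, as log2(CPM + 0.5) minus the mean of the WT embryos, with CDKO embryos 1 to 8 on the left and WT embryos 1 to 4 on the right. Red is above and blue below the WT mean. Wnt11, Dkk2 and Dkk3 are red and Wnt3a, Wnt8a and Fzd9 blue in every CDKO embryo, and WT embryo 1 stands apart in Wnt2 and Sfrp5.

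To test whether related genes changed unequally, the log2 ratio of 23 pairs of relatives, each from CPM + 0.5, was compared between groups by a two-sided exact permutation test over all 495 splits of the embryos, with Benjamini-Hochberg adjustment over the 23 pairs. The smallest p this design can give is 0.00202. In 8 pairs the ratio differed at an adjusted p under 0.05. The pairs were chosen with earlier results of these data known. No share over other pairs of genes was computed, and 51.5% of all genes tested were called on their own. The count of 8 is therefore a description of these pairs alone. Wnt3a over Wnt3 had log2 ratios of 0.79 to 1.65 in CDKO embryos and 2.09 to 2.30 in WT embryos, a difference of −1.15 (exact permutation p = 0.00202, adjusted 0.0186). The groups did not overlap, and Wnt3a fell while Wnt3 rose. Dkk1 over Dkk2 had log2 ratios of 0.094 to 1.78 in CDKO embryos and 1.82 to 2.95 in WT embryos, a difference of −1.31 (exact permutation p = 0.00404, adjusted 0.0186). The Dkk ratio lost its call without WT embryo 1, at a difference of −1.09.

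Receptor ratios also shifted. Lrp5 over Lrp6 had log2 ratios of −0.098 to 0.75 in CDKO embryos and −0.36 to −0.10 in WT embryos and did not overlap (difference 0.49, exact permutation p = 0.00404, adjusted 0.0186). Fzd3 over Fzd6 differed by −0.60 and Fzd4 over Fzd9 by 0.97, both with an adjusted exact permutation p of 0.0186. Wnt8a over Wnt8b differed by −1.26 and Rnf43 over Znrf3 by 0.54, each with an adjusted exact permutation p of 0.0199. The call for Wnt8a over Wnt8b was lost without WT embryo 2 (adjusted exact permutation p = 0.0697). Tcf7l1 over Tcf7l2 differed by 0.28 (adjusted exact permutation p = 0.0232) and lost its call without WT embryo 1, 2 or 3. Axin2 over Axin1 differed by −0.05, well inside the spread between embryos (adjusted exact permutation p = 0.52), and Wnt2 over Wnt2b by 0.38 (adjusted exact permutation p = 0.351). Without CDKO embryo 2 and WT embryo 1 together, 4 pairs passed. The ratios that no longer passed were Dkk1 over Dkk2, Fzd3 over Fzd6, Lrp5 over Lrp6 and Tcf7l1 over Tcf7l2, with adjusted exact permutation p of 0.0639 to 0.134.

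**Figure D4:**
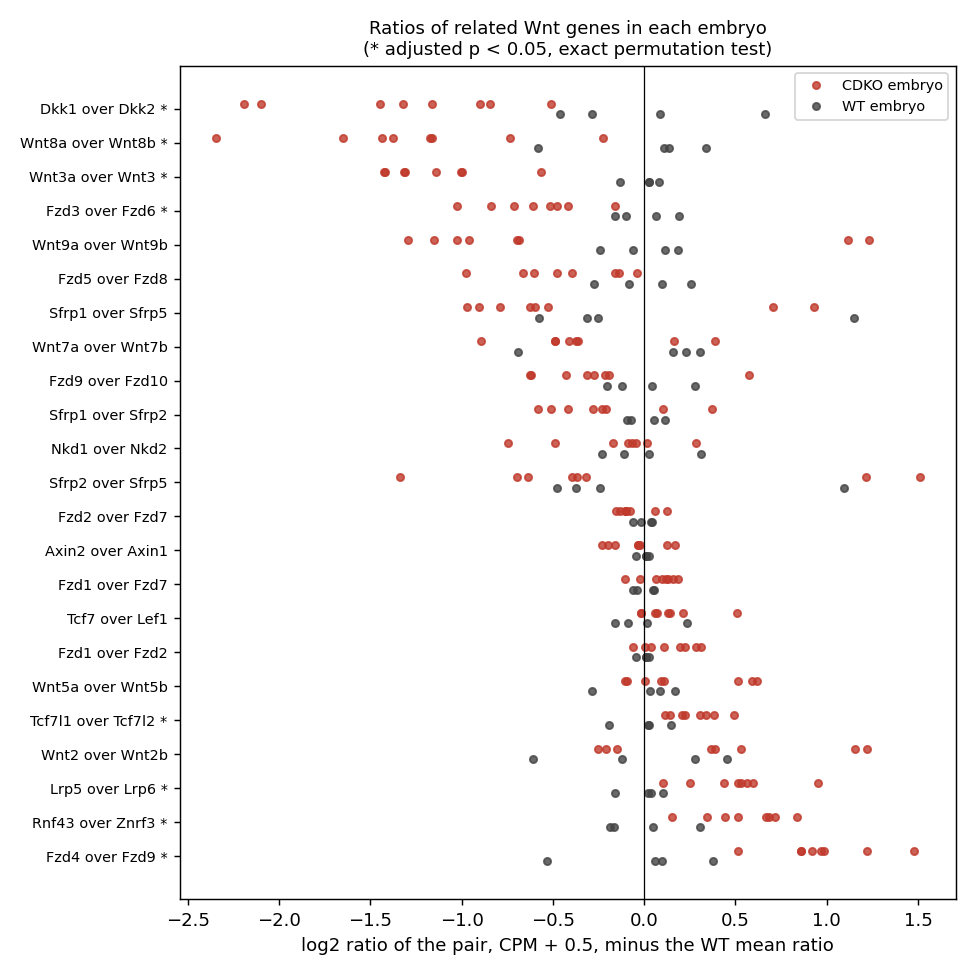
Log2 ratio of 23 pairs of related Wnt pathway genes in each embryo, from CPM + 0.5, minus the mean of the WT embryos. CDKO embryos are drawn beside WT embryos for each pair, and an asterisk marks the 8 pairs with an adjusted exact permutation p under 0.05. Wnt3a over Wnt3 and Dkk1 over Dkk2 lie below the WT embryos, and Fzd4 over Fzd9 and Lrp5 over Lrp6 above them.

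Wnt pathway genes outside the symbol rule were read from the same fit. Of 13 tested agonists and receptors, 2 were higher and 1 was lower, with a median log2 fold change of 0.04. Rspo3, which amplifies Wnt signals by keeping Frizzled at the surface, averaged 17.1 ± 3.62 CPM in CDKO embryos and 26.7 ± 5.71 CPM in WT embryos (log2 fold change −0.64, SE 0.18, adjusted p = 0.00956). Gpc3 and Ror1 were higher, by log2 fold changes of 0.23 and 0.37. Of 12 tested antagonists, 2 were higher and 4 lower, with a median of 0.02. The antagonists with the lowest p were Cer1, which also blocks Nodal and BMP ligands, at 1.119 ± 0.795 CPM in CDKO embryos and 6.01 ± 2.10 CPM in WT embryos, and the Dickkopf receptors Kremen1 and Kremen2, with log2 fold changes of 0.29 and −1.47.

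Of 28 cytoplasmic and nuclear pathway genes, 6 were higher and 4 lower, with a median log2 fold change of −0.04. Dact3, which encodes a Dishevelled-binding protein, averaged 84.1 ± 7.93 CPM in CDKO embryos and 29.3 ± 3.82 CPM in WT embryos. The fitted log2 difference was 1.52 ± 0.09 (SE), at an adjusted p of 5.78e-09. Its relative Dact1 was higher by 0.61, and Tle4, a corepressor that TCF/LEF factors recruit, had a log2 fold change of −0.52. Of 13 planar polarity genes, a list that also holds Fzd3 and Fzd6, 2 were higher and 4 lower. Celsr3, an atypical cadherin that acts with Fzd3 in axon tracts, averaged 6.02 ± 0.860 CPM in CDKO embryos and 14.9 ± 2.63 CPM in WT embryos (log2 fold change −1.31, SE 0.13, adjusted p = 7.93e-07). Prickle3 and Celsr1 had log2 fold changes of 0.83 and −0.31.

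Of 18 known transcriptional targets outside the rule, 1 was higher, 7 were lower and 10 did not pass, with a median log2 fold change of −0.39. Ccnd1, the gene for cyclin D1, fell by 0.23 on the log2 scale, and Cdx1, a tailbud gene, averaged 10.5 ± 4.44 CPM in CDKO embryos and 28.0 ± 5.95 CPM in WT embryos. Some of these targets, Cdx1 among them, are also tailbud markers, whose sum differed between groups as given above.

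Other marker lists showed less difference or more spread. Surface ectoderm markers were higher in 3 of 9 and lower in 1, with summed levels of 681.7 to 1257 CPM in CDKO embryos and 695.6 to 783.5 CPM in WT embryos. None of 10 yolk sac endoderm markers and none of 8 primitive red cell markers passed edgeR's test. Their sums ran from 723.3 to 3474 CPM in CDKO embryos and 616.4 to 2253 CPM in WT embryos for yolk sac, and from 36.9 to 1677 CPM in CDKO embryos and 786.7 to 1310.4 CPM in WT embryos for red cells. No marker was under 1 CPM in every embryo.

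None of the 54 genes has a near-identical copy over 200 bases at 95% identity. Axin2, Ctnnb1, Fzd5, Fzd6, Lef1, Sfrp2, Tcf7l1, Wnt5a, Wnt7b and Wnt11 overlap annotated genes on the other strand, and since the strand setting of the counts is not given, reads of such partners cannot be told apart. Of the 29 calls, 20 held whichever single embryo was left out: 7 higher (Wnt11, Wnt2, Wnt2b, Wnt4, Dkk2, Dkk3 and Tcf7l1) and 13 lower (Wnt3a, Wnt8a, Fzd3, Fzd5, Fzd9, Fzd10, Lrp6, Axin1, Axin2, Lef1, Tcf7, Sp5 and Znrf3).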

How the data were processed

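The table holds whole-number counts of reads per symbol, as the authors deposited them, for 12 single embryos, from poly-A selected RNA read as paired 50-base reads per the labels. FastQC, STAR, featureCounts and DESeq2 with build mm9 are named, per the submitters' processing notes, and the sources used here give no versions, annotation or strand setting. Genotype was tested by the robust quasi-likelihood F test of edgeR 4.0.16 (R 4.3.3) with no covariate, after filterByExpr and TMM scaling (Benjamini-Hochberg over 14412 genes, threshold 0.05), over 8 CDKO and 4 WT embryos. SE is the size of the log2 fold change divided by the square root of F. No pair of libraries within a group agreed within sampling noise (lowest chi-square per degree of freedom 3.89). The labels give no litters or embryo numbers, so embryos are numbered in accession order and p-values measure the spread between these embryos.

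Members, lists and pairs were chosen with earlier results of these data known. All members are accounted for, and values by embryo are given for members past 0.05 with a log2 fold change of at least 0.5 in size and for Wnt1, Wnt3a, Wnt5a, Wnt8a, Wnt11, Axin2, Lef1, Sp5 and Ctnnb1. From each other list the genes with the 3 lowest p values could be named, and 1 such gene is not reported here. The lists are Wnt agonists and receptors, antagonists, cytoplasmic and nuclear genes, planar polarity genes and targets, and markers of tailbud, dorsal neural tube, midbrain-hindbrain boundary, heart, surface ectoderm, yolk sac endoderm, endothelium and primitive red cells. On simulated counts of 14303 genes, the test called 38 of 56 genes changed 1.5-fold, 62 of 69 changed 2-fold and 70 of 71 changed 4-fold, and 15 of its 185 calls were unchanged genes. Far fewer genes were changed there than the 51.5% called in the embryos, so these rates do not carry over directly. Lengths and GC content came from GENCODE M21 for 98.0% of symbols. Copies were sought with BLAST 2.17.0. Alternatives were other scalings and filters, DESeq2 1.42.0, limma 3.58.1, a test against 1.2-fold, removal of GC and length trends, other thresholds and pseudocounts, and leaving out embryos.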

Additional observations from a re-analysis of the deposited data

Results flagged for a closer look

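In 6 of 102 groups looked at (51 genes in 2 groups, 5.88%), 1 embryo lay far from the others of its group by Dixon's gap ratio, where chance flags about 1 in 20. CDKO embryo 2 had the lowest Wnt5a level, 46.8 CPM, against 70.9 to 88.0 CPM in the other CDKO embryos. CDKO embryo 7 had the lowest Axin1 level, 91.9 CPM, and CDKO embryo 3 the highest Axin2 level, 109.7 CPM. WT embryo 4 had the highest Wnt10a level, 1.196 CPM, and without it the Wnt10a difference no longer passed. WT embryo 1 had the highest Wnt7b level, 18.8 CPM, and the lowest Nkd2 level, 9.50 CPM. No cause was tested for any of them.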

How the results depend on the processing

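No direction of a called gene or pair was reversed under any alternative run. The counts of Wnt pathway genes, 12 higher and 17 lower, ran from 8 to 14 higher and from 13 to 17 lower when each embryo was left out in turn, and those of all genes from 3369 to 3896 higher and from 3107 to 3683 lower. The 8 pairs that differed became 6 to 9. Under a test against 1.2-fold, 6 Wnt pathway genes were higher and 9 lower, and 2079 genes of the whole table were higher and 1144 lower. At an adjusted p of 0.01, 7 Wnt pathway genes were higher. Without CDKO embryo 2 and WT embryo 1 together, 10 were higher and 13 lower, and 4 pairs differed. Of the 29 calls, 15 held under every alternative, and the cause of the other losses was not tested. With GC and length trends removed, Wnt1, Wnt16 and Sfrp2 no longer passed (adjusted p of 0.0866, 0.0837 and 0.113) and Fzd4 did (adjusted p = 0.0126). Wnt8a, Wnt10a and Wnt16 rest on 50 to 126 counts per group, and the effect of depth on them was not tested. No paired analysis was possible because the labels give no replicate numbers shared between the groups.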

Other observations

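CDKO embryos 7 and 8 were alike in several Wnt genes and apart from the other CDKO embryos. They were the lowest 2 of the 8 for Wnt9b (3.32 and 3.19 CPM), Sfrp5 (16.7 and 21.7 CPM), Wnt1 (14.0 and 16.4 CPM) and Sp5 (19.2 and 19.7 CPM), and the highest 2 for Wnt9a (3.96 and 4.17 CPM), Wnt7b (28.9 and 31.0 CPM) and Fzd3 (152 and 139.6 CPM). Their marker sums also stood apart: 785.7 and 681.7 CPM for surface ectoderm, against 985.4 to 1257 CPM in the other CDKO embryos, and 130.7 and 166.8 CPM for tailbud, below all other CDKO embryos except CDKO embryo 2. The part of these markers was not tested. These genes were picked after their values were seen, and the labels give no litter or date that would group the pair.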
